A study of Mus musculus with 6 samples.

Results

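The 10 genes described here are markers of mouse embryonic stem (ES) cells: the developmental pluripotency associated genes Dppa2, Dppa3, Dppa4 and Dppa5a, and Tcl1, Utf1, Fbxo15, Gdf3, Tdgf1 and Fgf4. They were chosen by name, with earlier results of these data known. A gene was read from a probe set that the array's annotation assigns to a single symbol, and where there were several, the set that was brightest on average across all 6 arrays was taken. The 10 genes had 13 such probe sets and make up 10 of the 19938 genes analysed. They were measured in 3 chromosome transfer ES cell lines, ♂M-1, ♂M-3 and ZM-1, with 2 biological repeats and 2 arrays per line, in a study of the reprogramming capacity of the parental pronuclei of the zygote. The labels do not spell out ♂M or ZM and give no genotype, strain or age. All 3 lines were grown on gelatin, with no feeder cells named in the labels, with LIF and with PD0325901 and CHIR99021, which inhibit MEK and GSK3β, so every value below is from cells treated with both inhibitors. ZM-1 is the only line of its name, so a difference between a ♂M line and ZM-1 cannot be told apart from a difference between single lines.

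Several of these genes act on chromatin in the earliest cells of the embryo. DPPA2 and DPPA4 are small DNA-binding proteins with a SAP domain that form a heterodimer, occupy CpG-rich promoters and help to activate Dux and the genes of the 2-cell embryo, while DPPA3 (Stella, PGC7) is a maternal protein that protects the maternal genome from loss of DNA methylation and restrains UHRF1 and DNMT1. UTF1 binds chromatin at developmental promoters. GDF3, TDGF1 (Cripto) and FGF4 are secreted or surface signalling proteins: GDF3 is a TGFβ family ligand, TDGF1 is the co-receptor of NODAL and GDF3, and FGF4 drives ERK signalling and the first steps of differentiation. TCL1 is a co-activator of the kinase AKT, FBXO15 is an F-box protein long used as a reporter of reprogramming although it is dispensable for ES cells, and DPPA5A is an RNA-binding KH domain protein.

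RefSeq promoter windows, from 250 bases before to 50 bases after the start, were matched by symbol for 4 of the 10 genes (Tcl1, Utf1, Tdgf1 and Fgf4, GRCm38.p6). The windows of Tcl1 and Utf1 are shown because these genes passed the test in the comparisons below. Each runs 5′ to 3′ along its gene, with CpG dinucleotides in capitals.
Tcl1, chr12:105222688-105222987, minus strand: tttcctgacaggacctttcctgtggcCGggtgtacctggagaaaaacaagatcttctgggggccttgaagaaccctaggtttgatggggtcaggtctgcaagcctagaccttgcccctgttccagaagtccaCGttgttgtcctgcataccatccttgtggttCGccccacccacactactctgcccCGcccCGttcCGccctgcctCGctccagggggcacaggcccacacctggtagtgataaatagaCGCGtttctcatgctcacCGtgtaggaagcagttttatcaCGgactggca
Utf1, chr7:139943606-139943905, plus strand: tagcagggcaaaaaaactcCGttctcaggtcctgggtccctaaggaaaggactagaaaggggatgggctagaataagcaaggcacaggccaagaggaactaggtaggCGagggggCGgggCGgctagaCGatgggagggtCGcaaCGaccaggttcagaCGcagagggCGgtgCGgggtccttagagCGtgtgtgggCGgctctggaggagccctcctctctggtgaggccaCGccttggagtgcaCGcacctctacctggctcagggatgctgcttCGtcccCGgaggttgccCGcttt
The windows held 11 CpG dinucleotides in Tcl1, 17 in Utf1, 7 in Tdgf1 and 28 in Fgf4, against quartiles of 3, 7 and 20 over all 32851 windows of the table. Fgf4 had more CpG dinucleotides than 85.8% of the windows and Utf1 more than 68.6%, with Tcl1 at 58.6% and Tdgf1 at 47.9%. Motifs were searched on both strands: the octamer ATGCAAAT (1.74% of all windows), the SOX letters CATTGT (12.6%), the Esrrb letters AAGGTCA (4.72%), the KLF letters GGGNGTGG (17.6%), the E-box CACGTG (7.15%) and the TATA box TATAAA (13.6%). Of these, only the KLF letters matched a window of the 4 genes, at 2 places in Tdgf1. Those matches are letters in a window and were not tested as binding sites.

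The deposited values are array intensities on a linear scale. All 6 arrays had similar distributions, with medians of 67.2 to 71.3 and lower quartiles of 23.8 to 25.1, and no array stood apart on these measures. All 10 genes lay above the lower quartile on every array, with Dppa3 nearest to the median. The labels' tissue was checked through the core regulators: Pou5f1 (Oct4) averaged 3711 ± 39.1 in ♂M-1, and 3614 ± 75.0 in ♂M-3, against 3875 ± 4.67 in ZM-1, and Sox2 averaged 2916 ± 275, 2933 ± 24.6 and 2906 ± 103 in the same order (SD, n = 2 each). Neither passed the test between any pair of lines. Differences were tested on log2(intensity + 1) with limma, with 1 mean per line, and adjusted by the Benjamini-Hochberg method over all 19938 genes; a gene is said to be higher or lower when its adjusted p was below 0.05. Levels in these bulk samples cannot distinguish fewer cells from less RNA per cell. With 2 arrays against 2, an exact permutation test could not go below p = 0.333, so the tests rest on the spread shared across genes. Each difference was recomputed in 16 alternative settings, 6 of which leave out a single array and the others of which change the normalization, the offset, the filter, the probe sets, the model or its prior; Dppa3 was removed by the filter at the median and has 15. For any pair, leaving out either array of the third line gave the same fit as using only the 4 arrays of both lines. A count of settings therefore includes that fit more than once. The labels say that the repeats are biological but not how they were separated, so p-values measure only the spread between these samples.

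**Figure D1:**
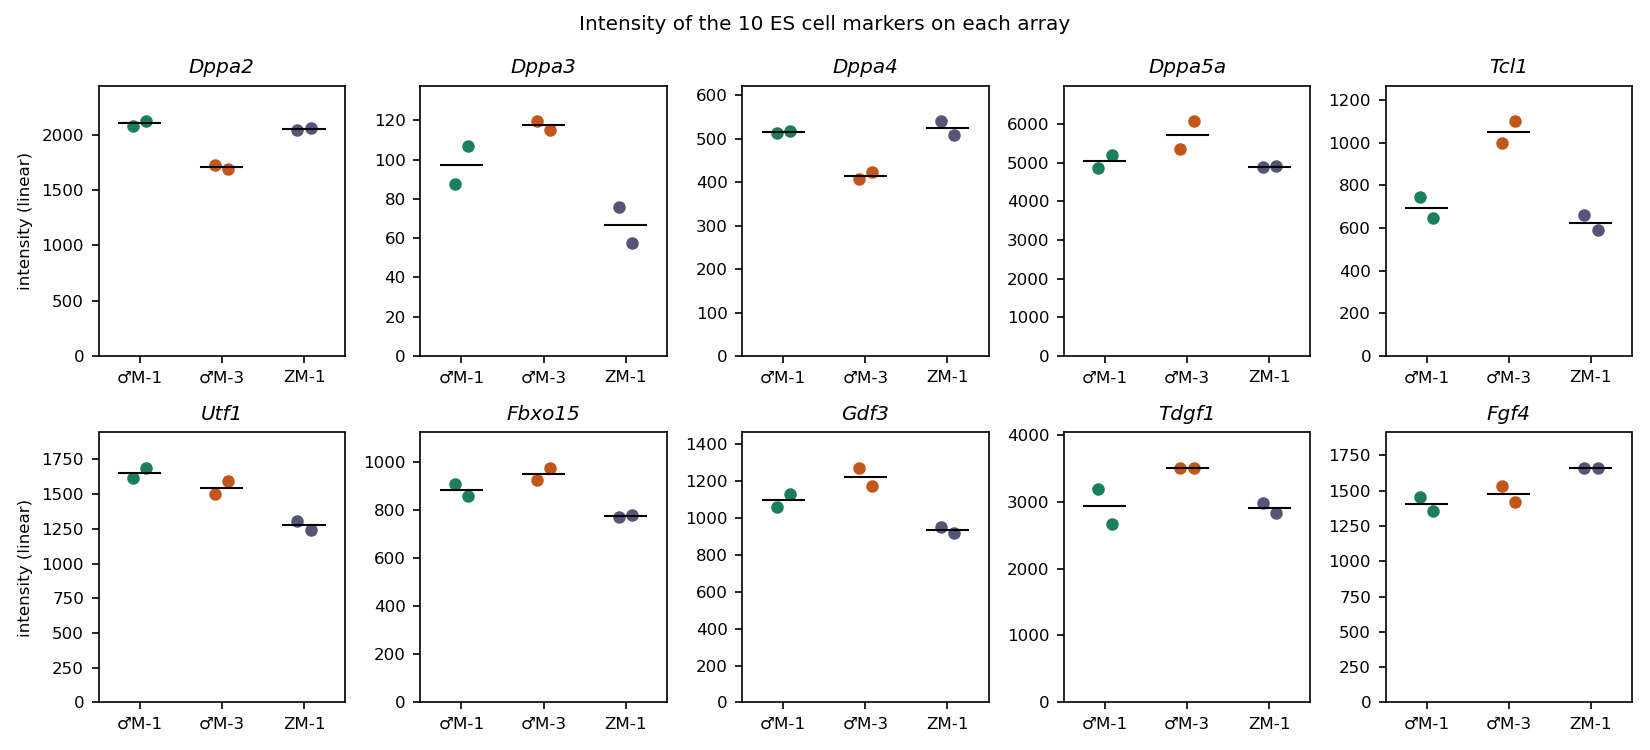
Intensity (linear scale, from 0) of the 10 genes on each of the 6 arrays, with points for single arrays and a line at the mean of each line's 2 repeats. Tcl1 lies at 999.7 and 1100.0 in ♂M-3, above the 4 arrays of the other lines, and Dppa2 and Dppa4 are lowest in both arrays of ♂M-3. The values of Dppa2 and Dppa4 are from their brighter probe sets, and the dimmer Dppa2 set overlapped between ♂M-3 and ZM-1.

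Among the chromatin factors, the brighter probe sets of Dppa2 and its partner Dppa4 shared a pattern, with their lowest levels in ♂M-3. Those sets lay among probe sets of other chromosomes than the genes' own. The dimmer Dppa2 set differed by -0.073 in ♂M-3 against ZM-1 (limma adjusted p = 0.678). In its brighter set, Dppa2 measured 2081 and 2122 in ♂M-1, and 1725 and 1692 in ♂M-3, against 2045 and 2057 in ZM-1. Both ♂M-3 arrays lay below all 4 others. Dppa2 was 1.20-fold lower in ♂M-3 than in ZM-1 (log2 difference -0.26, 95% confidence interval -0.43 to -0.10, limma adjusted p = 0.0379), at 1708 ± 23.0 and 2051 ± 8.35 (SD, n = 2 each). It was 1.23-fold higher in ♂M-1 than in ♂M-3 (log2 difference 0.30, interval 0.14 to 0.46, limma adjusted p = 0.0415), and its difference between ♂M-1 and ZM-1 was 0.035 (-0.13 to 0.20).

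Dppa4 measured 513 and 518 in ♂M-1, and 407 and 424 in ♂M-3, against 541 and 509 in ZM-1. The ♂M-3 arrays again lay below all others. It was 1.26-fold lower in ♂M-3 than in ZM-1 (log2 difference -0.34, interval -0.51 to -0.17, limma adjusted p = 0.0176) and 1.24-fold higher in ♂M-1 than in ♂M-3 (0.31, 0.14 to 0.48, limma adjusted p = 0.0425). The difference between ♂M-1 and ZM-1 was -0.025 (-0.20 to 0.15). The ♂M-3 against ZM-1 call for Dppa4 was kept in 12 of 16 alternative settings and lost without ♂M-3 repeat 1 (0.113), ♂M-3 repeat 2 (0.0717) or ZM-1 repeat 1 (0.0701). That for Dppa2 was kept in 5 of 16 and lost whichever single array was left out, with adjusted p of 0.0569 to 0.180, and under median centring (0.0907). The ♂M-1 against ♂M-3 calls of both genes were lost whichever array of those lines was left out, at 0.124 to 0.224 for Dppa2 and 0.138 to 0.231 for Dppa4, and under median centring (0.0515 and 0.0582).

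Dppa3 had the largest difference from ZM-1 in both ♂M lines among the 10 genes. It measured 87.6 and 107 in ♂M-1, and 119.5 and 115 in ♂M-3, against 75.7 and 57.4 in ZM-1, so that ZM-1 lay below both ♂M lines. In ♂M-3 it was 1.77-fold higher than in ZM-1, at 117 ± 3.0 against 66.5 ± 12.9 (SD, n = 2 each), with a log2 difference of 0.82 (interval 0.52 to 1.13, limma adjusted p = 0.00438). In ♂M-1 the difference was 0.55 (0.24 to 0.85, 97.2 ± 13.6 against 66.5 ± 12.9), which missed the threshold (limma adjusted p = 0.0588). This ♂M-1 difference passed it in 6 of 15 alternative settings, and without single arrays it ranged from 0.35 to 0.74 (limma adjusted p of 0.0167 to 0.301), passing only without ZM-1 repeat 1. Between ♂M-1 and ♂M-3 the difference was -0.28 (-0.58 to 0.030). The call in ♂M-3 was kept in all 15 alternative settings that could be run for Dppa3.

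Utf1 was higher in both ♂M lines than in ZM-1. It measured 1616 and 1691 in ♂M-1, and 1500.1 and 1593 in ♂M-3, against 1306 and 1243 in ZM-1. Both ZM-1 arrays lay below the other 4. Utf1 was 1.30-fold higher in ♂M-1 cells than in ZM-1 (log2 difference 0.38, interval 0.20 to 0.55, limma adjusted p = 0.0308) and 1.21-fold higher in ♂M-3 than in ZM-1 (0.28, 0.10 to 0.45, limma adjusted p = 0.0410). Each of these calls was kept in 6 of 16 alternative settings and was lost whichever single array was left out, with adjusted p of 0.0549 to 0.173 in ♂M-1 and 0.0597 to 0.221 in ♂M-3. Quantile normalization also ended both (0.0633 and 0.117). The lines ♂M-1 and ♂M-3 differed by 0.097 (-0.079 to 0.27).

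Of the signalling genes, Gdf3 passed the test against ZM-1, and Tdgf1 and Fgf4 did not. Gdf3, the TGFβ family ligand, measured 1062 and 1131 in ♂M-1, and 1273 and 1175 in ♂M-3, against 954 and 917 in ZM-1, with ZM-1 lowest on both arrays. It was 1.31-fold higher in ♂M-3 than in ZM-1 (log2 difference 0.39, interval 0.20 to 0.57, limma adjusted p = 0.0130; 13 of 16 settings). The call was lost without ♂M-3 repeat 1 (0.0986) and without ZM-1 repeat 2 (0.0550). In ♂M-1 the difference was 0.23 (0.047 to 0.41, limma adjusted p = 0.157). Its co-receptor Tdgf1 measured 3195 and 2661 in ♂M-1, and 3506 and 3496.5 in ♂M-3, against 2973 and 2826 in ZM-1. The repeats of ♂M-1 spanned both ZM-1 arrays, and ♂M-3 lay above all others. Its difference was 0.27 (0.055 to 0.49, limma adjusted p = 0.0896) between ♂M-3 and ZM-1, and 0.0087 (-0.21 to 0.23) between ♂M-1 and ZM-1. Fgf4 was one of 2 genes with its highest mean in ZM-1, with 1453 and 1359 in ♂M-1, and 1536 and 1419.8 in ♂M-3, against 1657 and 1663 in ZM-1. Its differences from ZM-1 were -0.24 (-0.42 to -0.060, limma adjusted p = 0.136) in ♂M-1 and -0.17 (-0.35 to 0.012, limma adjusted p = 0.196) in ♂M-3, neither past the threshold.

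Tcl1, the AKT co-activator, was higher in ♂M-3 than in both other lines. It measured 744 and 646 in ♂M-1, and 999.7 and 1100.0 in ♂M-3, against 660.4 and 589 in ZM-1. The ♂M-3 arrays lay above all others, while ♂M-1 and ZM-1 overlapped. Tcl1 was 1.68-fold higher in ♂M-3 than in ZM-1, at 1049.9 ± 70.9 against 625 ± 50.6 (SD, n = 2 each), with a log2 difference of 0.75 (interval 0.52 to 0.97, limma adjusted p = 0.00157), and the call was kept in all 16 alternative settings. It was 1.51-fold lower in ♂M-1 than in ♂M-3 (-0.60, -0.82 to -0.37, limma adjusted p = 0.00906), a call lost without ♂M-1 repeat 2 (0.09998) and without ♂M-3 repeat 2 (0.0804). Between ♂M-1 and ZM-1 the difference was 0.15 (-0.073 to 0.38).

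Fbxo15 measured 906 and 856 in ♂M-1, and 922 and 975 in ♂M-3, against 768 and 776 in ZM-1. ZM-1 lay below both ♂M lines on every array. Fbxo15 was 1.23-fold higher in ♂M-3 than in ZM-1 (log2 difference 0.30, interval 0.12 to 0.47, limma adjusted p = 0.0310; 10 of 16 settings, the call being lost without any array of ♂M-3 or ZM-1, at 0.0813 to 0.181, and under quantile normalization, at 0.0924). In ♂M-1 the difference was 0.19 (0.016 to 0.36, limma adjusted p = 0.212). Dppa5a, the KH domain gene, measured 4860.3 and 5197 in ♂M-1, and 5359 and 6071 in ♂M-3, against 4879.8 and 4906 in ZM-1. Its difference of 0.22 (0.026 to 0.42, limma adjusted p = 0.119) between ♂M-3 and ZM-1 missed the threshold, and it was 0.039 (-0.16 to 0.23) between ♂M-1 and ZM-1.

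In ♂M-3 against ZM-1, 7 of the 10 genes were called, 5 higher and 2 lower, where 15.9% of all genes were called (8.66% higher and 7.2% lower, or 1727 and 1435 genes, against 2625 and 1080 under median centring). In ♂M-1 against ZM-1, 1 was called, Utf1, and it was higher, where 4.41% of all genes were called (1.89% higher and 2.53% lower, or 376 and 504 genes, against 629 and 385 under median centring); 5 of the 10 had an unadjusted p below 0.05, as did 20% of all genes in this pair (30% in ♂M-3 against ZM-1 and 19.8% in ♂M-1 against ♂M-3). In ♂M-1 against ♂M-3, 3 were called, Dppa2 and Dppa4 higher and Tcl1 lower, where 6.54% of all genes were called (3.22% higher and 3.32% lower). A refit on the 9969 genes above the median, with its own adjustment, called more genes in each pair than the fit on all genes. Its filter removes Dppa3. In ♂M-3 against ZM-1 it called 3391 genes and 7 members, which are not the same 7 as above, since those include Dppa3. The counts were 1303 genes and 1 member in ♂M-1 against ZM-1, and 1803 genes and 3 members in ♂M-1 against ♂M-3. The comparisons with ZM-1 share its 2 arrays and are not independent of each other. As the 10 genes were chosen with earlier results of these data known, their counts do not test for an excess over all genes. The arrays of the lines did not overlap for 10 of 10 genes in ♂M-3 against ZM-1 (57.5% of all genes), 6 of 10 in ♂M-1 against ZM-1 (48.9%) and 9 of 10 in ♂M-1 against ♂M-3 (50.5%). The median log2 difference of the 10 genes was 0.28 in ♂M-3 against ZM-1, 0.096 in ♂M-1 against ZM-1 and -0.13 in ♂M-1 against ♂M-3, beside 0.0021, -0.0082 and -0.017 for all genes. Median centring, done on all probe sets, moved these values for all genes to 0.059, 0.041 and -0.025, so the centred counts above include that shift. Of the 10, 6 had their highest mean in ♂M-3, 2 in ♂M-1 and 2 in ZM-1, and 7 had their lowest mean in ZM-1.

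**Figure D2:**
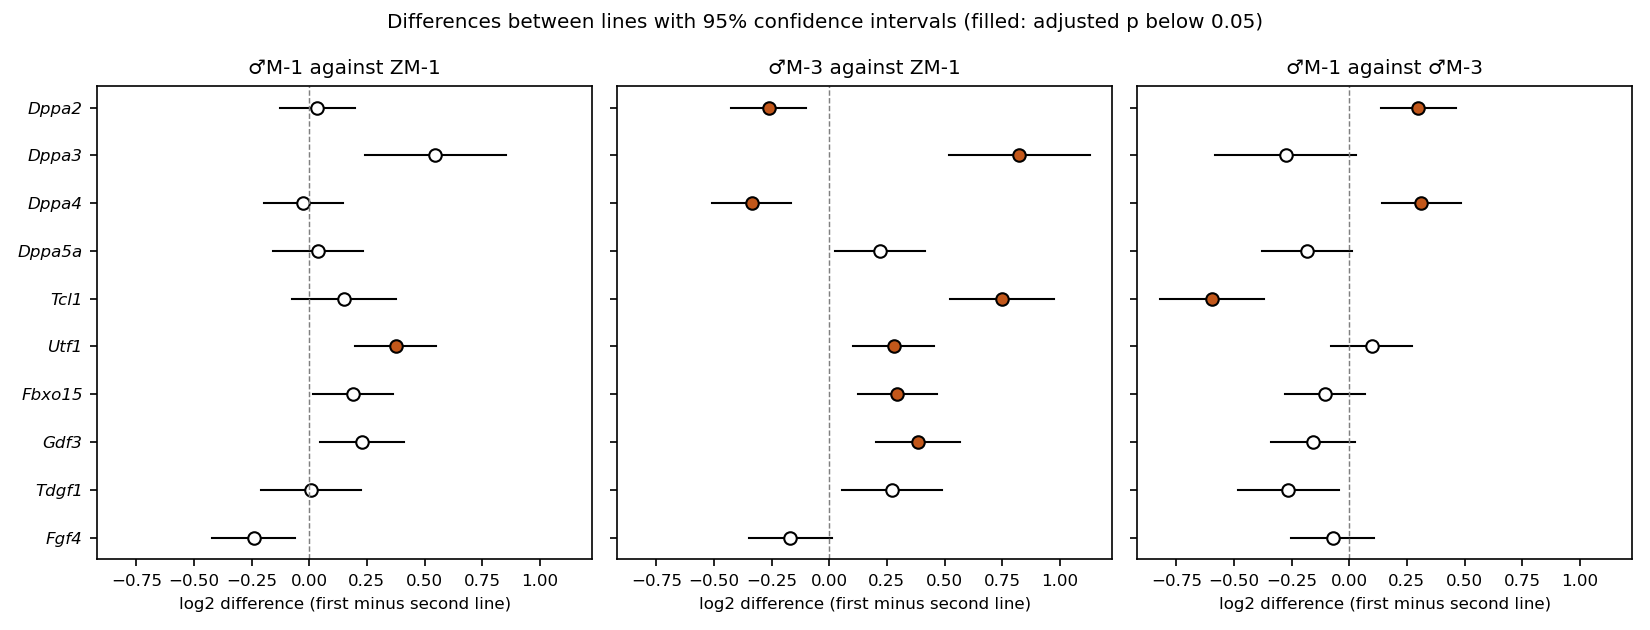
Log2 differences (first line minus second) of the 10 genes with 95% confidence intervals for each pair of lines, filled where the adjusted p was below 0.05. In ♂M-3 against ZM-1 the 5 genes called higher run from 0.28 for Utf1 to 0.82 for Dppa3, while Dppa2 and Dppa4 lie at -0.26 and -0.34. Dppa2 and Dppa4 are shown from their brighter probe sets, and the dimmer Dppa2 set differed by -0.073.

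A second single-symbol probe set existed for 3 genes, and it gave the same calls for some and not for others. For Dppa3, the dimmer probe set measured 97.1 and 89.3 in ♂M-1, and 87.8 and 79.9 in ♂M-3, against 49.3 and 52.9 in ZM-1. It was higher in both ♂M lines: 1.81-fold in ♂M-1 (log2 difference 0.85, limma adjusted p = 9.67e-04) and 1.63-fold in ♂M-3 (0.70, limma adjusted p = 0.00104). The call against ZM-1 in ♂M-1 thus depended on the probe set, as the brighter one missed the threshold there. Between ♂M-1 and ♂M-3 the dimmer Dppa3 set differed by 0.15 and the brighter by -0.28, neither past the test. For Dppa4, the dimmer probe set measured 383 and 392 in ♂M-1, and 310.03 and 273 in ♂M-3, against 359 and 360.2 in ZM-1; it was 1.23-fold lower in ♂M-3 than in ZM-1 (-0.30, limma adjusted p = 0.0389) and 1.33-fold higher in ♂M-1 than in ♂M-3 (0.41, limma adjusted p = 0.0209), the same directions as the brighter one. For Dppa2, the dimmer probe set measured 309 and 262 in ♂M-1, and 226 and 216 in ♂M-3, against 246 and 220.0 in ZM-1, with differences of -0.073 in ♂M-3 against ZM-1 (limma adjusted p = 0.678) and 0.36 in ♂M-1 against ♂M-3 (0.0670), so that neither call of the brighter set was made.

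Probe sets with neighbouring numbers on the array mostly belonged to genes of 1 chromosome, and 3 of the 6 sets lay among those of another chromosome than their gene's. The brighter Dppa2 set lay among chromosome 19 probe sets (8 of 8 neighbours with a known chromosome) and the brighter Dppa4 set among chromosome 2 probe sets (10 of 10), while their dimmer sets lay among chromosome 16 probe sets (9 of 10 each), where both genes are. For Dppa3, on chromosome 6, the brighter set lay among chromosome 6 probe sets (8 of 10) and the dimmer one among chromosome X probe sets (10 of 10). Whether a set read a copy of the gene elsewhere was not tested.

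**Figure D3:**
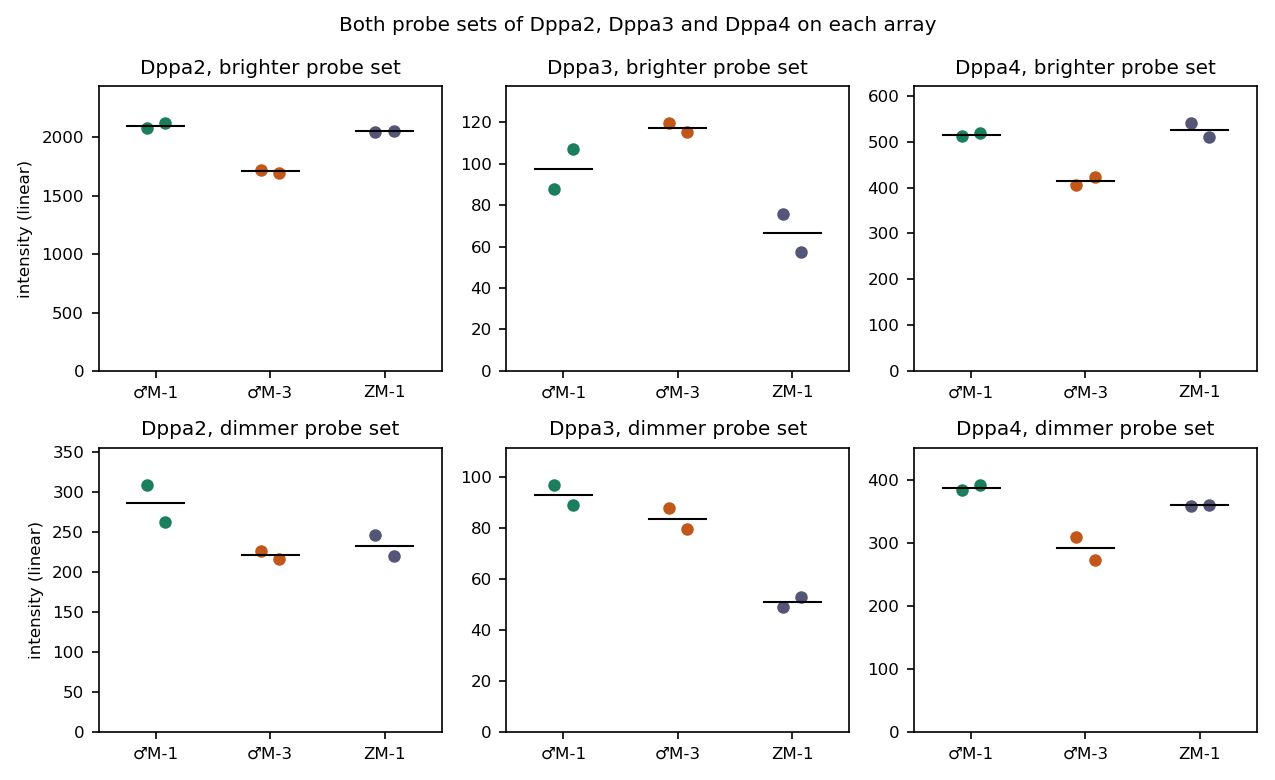
Intensity (linear scale, from 0) of the brighter and the dimmer probe set of Dppa2, Dppa3 and Dppa4 on each array. Both Dppa3 sets are lower in the 2 ZM-1 arrays than in the 4 ♂M arrays, and both Dppa4 sets are lowest in ♂M-3.

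Dppa3 and Gdf3 lie next to each other on chromosome 6, beside Nanog, and Dppa2 and Dppa4 lie next to each other on chromosome 16. In RefSeq order the chromosome 6 genes are Mfap5, Apobec1, Gdf3, Dppa3, Nanog and Slc2a3. In ♂M-3 against ZM-1, Nanog, the homeobox regulator of naive pluripotency, averaged 4086 ± 5.49 and 3361 ± 47.3 (log2 difference 0.28, limma adjusted p = 0.0384), a call kept in 9 of 16 settings and lost whichever array of ♂M-3 or ZM-1 was left out (limma adjusted p of 0.0806 to 0.161). Slc2a3, the glucose transporter GLUT3, averaged 5919 ± 289 and 4265 ± 32.1 (0.47, limma adjusted p = 0.0104, lost without ♂M-3 repeat 1 at 0.0759). Mfap5, an extracellular microfibril protein, was lower, at 103 ± 9.57 and 155 ± 14.2 (-0.58, limma adjusted p = 0.00419). Morc1, a germline silencing factor next to Dppa2, was higher in ♂M-3 than in ZM-1, at 824 ± 35.9 and 623 ± 24.4 (0.40, limma adjusted p = 0.00893, lost without ♂M-3 repeat 2 at 0.0773), opposite to Dppa2 and Dppa4. The Dppa2 and Dppa4 values here are from their brighter probe sets, which lay among probe sets of other chromosomes. Their dimmer sets, among chromosome 16 probe sets, differed by -0.073 for Dppa2 (limma adjusted p = 0.678) and -0.30 for Dppa4 (limma adjusted p = 0.0389). Of the 32 neighbours counted over the 10 genes, 5 were higher and 3 lower in ♂M-3 against ZM-1, 0 and 2 in ♂M-1 against ZM-1, and 0 and 4 in ♂M-1 against ♂M-3. Over all genes, 15.9%, 4.41% and 6.54% were called in these pairs. Fgf15, next to Fgf4 on chromosome 7 and an endocrine FGF, averaged 67.0 ± 2.92 in ♂M-1, and 112 ± 0.161 in ♂M-3, against 74.1 ± 9.37 in ZM-1; it was higher in ♂M-3 than in ZM-1 (0.60, limma adjusted p = 0.00389) and lower in ♂M-1 than in ♂M-3 (-0.73, limma adjusted p = 0.00281), both kept whichever single array was left out. Ddx43, a germline RNA helicase near Dppa5a, was lower in ♂M-1 than in both other lines, at 92.9 ± 12.1 against 130 ± 6.01 in ♂M-3 and 161 ± 9.47 in ZM-1 (-0.48, limma adjusted p = 0.0243, and -0.79, limma adjusted p = 0.00335); the call against ♂M-3 was lost without ♂M-1 repeat 2 or either ♂M-3 array (0.0883 to 0.182). Lrrc2 near Tdgf1 was higher in ♂M-3 than in ZM-1, at 1161 ± 56.2 against 937 ± 1.94 (0.31, limma adjusted p = 0.0244, lost whichever array of ♂M-3 or ZM-1 was left out, at 0.0679 to 0.165). Apobec1, a cytidine deaminase that edits RNA, was lower in ♂M-1 cells than in ZM-1, at 134 ± 7.49 against 199 ± 38.7 (-0.55, limma adjusted p = 0.0400, lost whichever array other than ZM-1 repeat 2 was left out, at 0.0632 to 0.223). Bdkrb1, a bradykinin receptor near Tcl1, was lower in ♂M-3 than in ZM-1, at 42.3 ± 6.74 against 59.0 ± 5.32 (-0.48, limma adjusted p = 0.0240, lost without ♂M-3 repeat 2 at 0.158 or ZM-1 repeat 2 at 0.108).

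**Figure D4:**
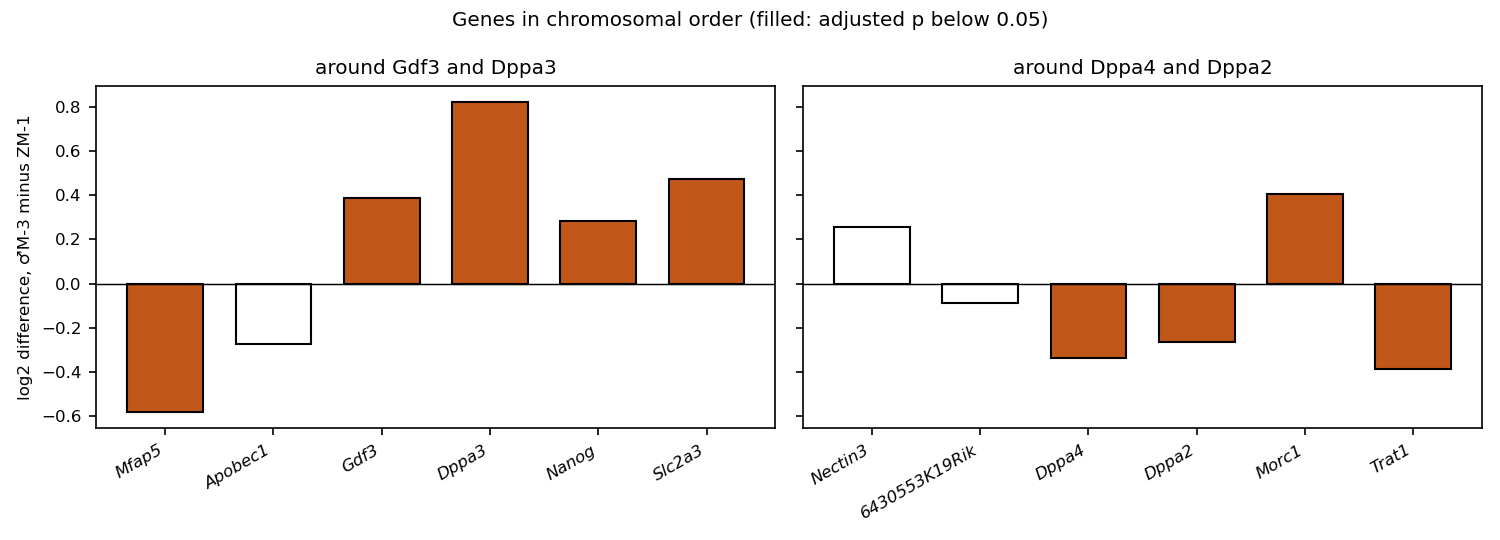
Log2 difference, ♂M-3 minus ZM-1, of the genes around Gdf3 and Dppa3 and around Dppa4 and Dppa2 in chromosomal order, filled where the adjusted p was below 0.05. Gdf3, Dppa3, Nanog and Slc2a3 are all higher, by 0.28 to 0.82, and Dppa4 and Dppa2 are lower beside Morc1 at 0.40. The bars of Dppa4 and Dppa2 are from their brighter probe sets, which lay among probe sets of other chromosomes. The dimmer Dppa2 set differed by -0.073. Trat1, the rightmost gene, lies below the lower quartile of intensity in both lines.

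Genes that DPPA3, TCL1, GDF3, FGF4 and FBXO15 work with were listed by role. The lists were chosen with earlier results of these data known, so their counts do not test for an excess over all genes. The counts of each list stand beside the share of all genes called. That share was 15.9% in ♂M-3 against ZM-1, 4.41% in ♂M-1 against ZM-1 and 6.54% in ♂M-1 against ♂M-3. Of the 8 measured DNA methylation genes, 3 were lower and 0 higher in ♂M-3 against ZM-1, and 1 was lower and 0 higher in ♂M-1 against ZM-1. Dnmt3a, a de novo methyltransferase, averaged 289 ± 8.90 in ♂M-1, and 262 ± 9.46 in ♂M-3, against 407 ± 0.450 in ZM-1 (SD, n = 2 each). It was lower in both ♂M lines, by log2 differences of -0.49 in ♂M-1 (limma adjusted p = 0.00773) and -0.63 in ♂M-3 (limma adjusted p = 8.49e-04). The ♂M-1 call was lost without either of its own arrays, at 0.0631 and 0.0544, and the ♂M-3 call was kept in all 16 settings. Dnmt3b, its homologue, and Dnmt3l, the catalytically inactive cofactor, were lower in ♂M-3 than in ZM-1, by -0.47 (limma adjusted p = 0.0144) and -0.28 (limma adjusted p = 0.0448). The Dnmt3b call was lost without either ♂M-3 array, at 0.0914 and 0.0538, and the Dnmt3l call whichever single array was left out, at 0.0657 to 0.246. In ♂M-1 against ♂M-3, 2 were higher, Dnmt3b at 679 ± 95.9 against 415 ± 18.7 and Dnmt3l at 2106 ± 55.5 against 1585 ± 96.8; the Dnmt3l call was lost whichever array of those lines was left out, at 0.0550 to 0.137.

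Of the 15 measured Nodal and GDF partners, 2 were higher and 1 lower in ♂M-3 against ZM-1, where 15.9% of all genes were called. In ♂M-1 against ZM-1, 3 were higher and 0 lower, where 4.41% of all genes were called. Nodal, the ligand that acts through TDGF1, averaged 629 ± 21.4 in ♂M-1, and 455 ± 19.2 in ♂M-3, against 709 ± 18.6 in ZM-1, and was lower in ♂M-3 than in ZM-1 (log2 difference -0.64, limma adjusted p = 9.37e-04, kept in all 16 settings). Lefty2, a secreted Nodal antagonist and Nodal target, was 1.74-fold higher in ♂M-1 cells than in ZM-1, at 576 ± 33.5 and 331 ± 33.1 (0.80, limma adjusted p = 0.00365, or 0.0555 without ♂M-1 repeat 2). Lefty1, its homologue, averaged 381 ± 59.3 in ♂M-1, and 311 ± 9.01 in ♂M-3, against 234 ± 26.0 in ZM-1, and was called in both ♂M lines (0.70, limma adjusted p = 0.0130, and 0.42, limma adjusted p = 0.0425). The ♂M-1 call for Lefty1 was lost without ♂M-1 repeat 2 (0.0975) and without ZM-1 repeat 2 (0.0538), and the ♂M-3 call without either ♂M-3 array or ZM-1 repeat 2 (0.122 to 0.183). Of the 14 measured FGF receptors and ERK outputs, 1 was higher and 2 lower in ♂M-3 against ZM-1. Egr1, an immediate early target of ERK, averaged 328 ± 17.7 in ♂M-3, against 480.5 ± 32.5 in ZM-1 (-0.55, limma adjusted p = 0.00422). In ♂M-1 against ZM-1, 0 of these 14 were called by limma and 5 had an unadjusted p below 0.05. None of the 9 measured AKT partners of TCL1 was called by limma in any pair of lines, with 2, 4 and 3 at an unadjusted p below 0.05 for the pairs ♂M-1/ZM-1, ♂M-3/ZM-1 and ♂M-1/♂M-3. The same held for the 3 measured FBXO15 ubiquitin ligase partners, with 0, 1 and 1. In ♂M-1 against ♂M-3, 2 Nodal and GDF partners (Nodal and Lefty2) and 2 FGF and ERK genes (Fgfr3 and Egr1) were higher, and 0 of either list were lower. Each of these 4 calls was lost when some single arrays of those lines were left out, with the limma adjusted p reaching 0.0894 for Nodal, 0.146 for Lefty2, 0.0762 for Fgfr3 and 0.185 for Egr1; the Egr1 call was lost whichever of the 4 was left out. Of 9 measured 2-cell-like genes out of 22 listed, 1 was higher and 1 lower in ♂M-3 against ZM-1, Eif1a and Tdpoz1. In the other pairs 0 were called, with 4 and 0 at an unadjusted p below 0.05 for the pairs ♂M-1/ZM-1 and ♂M-1/♂M-3. Most were dim: of the 9, 4 had a mean below the lower quartile of intensity and 8 below the median. The Eif1a call was lost whichever single array was left out, at 0.0542 to 0.187, and the Tdpoz1 call without ♂M-3 repeat 1 (0.107) and without ZM-1 repeat 2 (0.0772).

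Among 18 core and naive regulators, 5 were higher and 0 lower in ♂M-3 against ZM-1, where 15.9% of all genes were called. In ♂M-1 against ZM-1, 1 was higher and 0 lower, where 4.41% of all genes were called. Zfp42 (Rex1), a zinc finger marker of naive cells, averaged 291 ± 11.6 in ♂M-1, and 671 ± 3.77 in ♂M-3, against 272 ± 12.0 in ZM-1 (SD, n = 2 each). It was 2.47-fold higher in ♂M-3 than in ZM-1 (limma adjusted p = 2.40e-05) and 2.30-fold lower in ♂M-1 than in ♂M-3 (limma adjusted p = 8.64e-05). Tfap2c, an AP-2 factor, was 1.70-fold higher in ♂M-1 cells than in ZM-1 and 1.79-fold higher in ♂M-3 than in ZM-1, and the ♂M-1 call was lost without ♂M-1 repeat 2 (limma adjusted p = 0.0552). In ♂M-1 against ♂M-3, 3 regulators were lower and 0 higher.

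Markers of other cell types, from lists chosen in the same way, also differed in ♂M-3. Their counts stand beside 15.9% of all genes called in ♂M-3 against ZM-1, 4.41% in ♂M-1 against ZM-1 and 6.54% in ♂M-1 against ♂M-3. Of 16 measured fibroblast markers, 11 were lower and 1 higher in ♂M-3 than in ZM-1 (median log2 difference -0.47), 10 were higher and 0 lower in ♂M-1 than in ♂M-3 (median 0.51), and 3 were lower and 1 higher in ♂M-1 cells than in ZM-1 (median 0.022). Their summed intensity was 9362 to 9898 in ♂M-1, and 8025 to 8549 in ♂M-3, against 9614 to 9849 in ZM-1. Of the 16, 2 had a mean below the lower quartile of intensity and 3 below the median. Dcn (decorin), the one with the largest difference, averaged 214 ± 32.6 in ♂M-1, and 104 ± 11.3 in ♂M-3, against 571 ± 35.3 in ZM-1. Primed epiblast markers summed to 4360 to 4630 in ♂M-1, and 3765.1 to 3765.4 in ♂M-3, against 3996 to 4239 in ZM-1. Of the 13 measured, 3 were lower in ♂M-3 than in ZM-1, including Fgf5 at 63.3 ± 4.18 and 103 ± 1.75, and 1 was higher and 1 lower in ♂M-1 cells than in ZM-1. Of these markers, 4 were higher and 0 lower in ♂M-1 than in ♂M-3; Fgf5 was one of them, at 86.5 ± 11.9 and 63.3 ± 4.18, and its call there was lost without ♂M-1 repeat 2 or either ♂M-3 array (limma adjusted p of 0.100 to 0.244). In ♂M-3 against ZM-1, 1 of 17 primitive endoderm markers was higher and 5 lower, 1 of 12 trophectoderm markers was higher and 0 lower, and 4 of 18 germline genes were higher and 4 lower. In ♂M-1 against ZM-1, 3 germline genes were higher and 2 lower, and 0 primitive endoderm and 0 trophectoderm markers were called by limma, with 4 of each list at an unadjusted p below 0.05. In ♂M-1 relative to ♂M-3, 4 primitive endoderm markers were higher and 2 lower, 0 trophectoderm markers were higher and 2 lower, and 1 germline gene was higher and 3 lower. The part of these markers in the results for the 10 genes was not tested. Of 8 measured reference genes, 0 were called by limma in any pair, with 1, 2 and 0 at an unadjusted p below 0.05 for the pairs ♂M-1/ZM-1, ♂M-3/ZM-1 and ♂M-1/♂M-3.

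Over the 6 arrays, the log2 levels of Dppa2 and Dppa4 had a Pearson r of 0.954, and those of Dppa3 and Gdf3 an r of 0.959. Dppa2 and Tcl1 had an r of -0.94, and Utf1 and Fgf4 one of -0.971. Those were the highest and lowest values among all pairs of members. The next were 0.917 for Tcl1 and Tdgf1 and -0.909 for Dppa4 and Tcl1. Dppa2 and Dppa4 were read from their brighter probe sets, which lay among probe sets of other chromosomes. All r values describe 6 arrays that come in pairs of repeats and share their line means. Likeness was sought among 2740 called genes that passed an intensity cut at the median. Being called on these same arrays already selects genes that differ between lines, so this choice favoured high r values. The genes most like Tcl1 were Ttyh2 (r = 0.998) and Zfp395 (0.997), and those most like Dppa4 were Pxdn (0.999) and Ap1s3 (0.997). Those most like Dppa3 were Mex3d (0.994) and Tbl3 (0.992). Dppa2 was most like Gnptg (0.998) and Phlda3 (0.997), Utf1 like Tpp1 (0.998) and Spryd3 (0.998), Fbxo15 like Phkg2 (0.997) and Fam53b (0.997), and Gdf3 like H4c14 (0.998) and Sash1 (0.998). An r above 0.95 was common: 321 of the 2740 genes reached it with Tcl1, 172 with Dppa4, 154 with Dppa3 and 49 with Utf1.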

How the data were processed

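The 6 arrays of 3 mouse ES cell lines were analysed, 2 repeats per line, grouped by the cell line in the labels. Per the labels' protocols, the labelling of total RNA used biotin and a whole-transcript terminal kit. The authors deposited linear intensity values, 1 per probe set and array; the submitters' processing notes name GCOS 1.4, and how these values were normalized is not given in any source used here. The array has 35556 probe sets, with 1 symbol for 21789, several for 1621 and no entry in the annotation table for 12146; 19938 genes were analysed, 999 from several probe sets. No further normalization was applied. No scan date was available, so batches were not assessed; precision is limited by how few arrays there are. Values were tested as log2(intensity + 1) with limma 3.58.1 in R 4.3.3 on all 6 arrays (3 residual and 6.01 prior degrees of freedom), two-sided, with Benjamini-Hochberg adjustment over all genes. The procedure was first run on simulated data in which every gene had the same spread. Because the spread of real genes differs, that run does not show how well the calls here hold. Alternatives covered normalization, offset, filters, probe sets, prior, replicate block and single arrays. The use of the dimmer probe sets was added after seeing the data.

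The 10 members and all gene lists were chosen with earlier results of these data known. All members are named; of each list, up to 4 called genes with the largest difference could be named per comparison, plus Pou5f1, Sox2, Nanog, Zfp42 and Dcn, and called neighbours up to 2 genes away on either side. For each called member, the 2 genes with the highest r were found. Promoter sequences and gene order come from RefSeq (GRCm38.p6).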

Additional observations from a re-analysis of the deposited data

How the results depend on the processing

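The calls for Tcl1 and Dppa3 in ♂M-3 against ZM-1 held in every alternative run for them (16 and 15). Other calls depended on single arrays or on how genes were tested. In ♂M-3 against ZM-1, 7 members and 3162 genes were called; testing all probe sets left 2 members and 1296 genes, and leaving out single arrays gave 2 to 5 members and 1302 to 2750 genes. In ♂M-1 against ZM-1, 1 member and 880 genes were called; median centring, a filter at the 25th percentile and the mean of a gene's probe sets each gave 2 members, an intensity trend with a robust prior gave 4 members and 1694 genes, and using only the 4 arrays of both lines gave 0 members by limma (5 at an unadjusted p below 0.05). Testing all probe sets gave 0 members (5 unadjusted) and 170 genes, and leaving out single arrays 0 to 1 members and 234 to 631 genes. In ♂M-1 against ♂M-3, 3 members and 1303 genes were called; median centring gave 1 member, the trend 5 members and 1997 genes, all probe sets 0 members by limma (4 unadjusted) and 301 genes, and leaving out single arrays 0 to 3 members and 357 to 1495 genes. Leaving out arrays lowers the number of arrays, and testing all probe sets raises the number of tests. The cause of the changes in any setting was not tested. A lone array was assumed to vary like the other lines.

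With a filter at the median, 2291 genes were called higher and 1100 lower in ♂M-3 against ZM-1. Differences near 0 changed sign in ♂M-1 against ZM-1: under quantile normalization Dppa2 was -0.0094, Dppa5a -0.020, Tdgf1 -0.027 and Sox2 -0.032; Dppa4 was 0.024 under median centring, 0.042 with the mean of its probe sets and 0.11 with its dimmer set; without single arrays Dppa4 ranged from -0.068 to 0.018, Tdgf1 from -0.12 to 0.14, Dppa5a from -0.0096 to 0.087 and Sox2 from -0.094 to 0.099. In ♂M-3 against ZM-1, Sox2 was -0.021 under quantile normalization and ranged from -0.022 to 0.050 without single arrays; in ♂M-1 against ♂M-3 it ranged from -0.11 to 0.085. The dimmer Dppa3 set gave 0.15 in ♂M-1 against ♂M-3.

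Over all genes, arrays with the same repeat number deviated together with correlations of 0.067, -0.10 and -0.035 for the pairs ♂M-1/ZM-1, ♂M-3/ZM-1 and ♂M-1/♂M-3. Whether such arrays share a batch was not tested. With the repeat number as a block, 0 members by limma (4 unadjusted), 5 and 1 were called, and 686, 2769 and 1071 genes.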
